A study of Mus musculus with 57 samples.

Results

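The genes described here are 40 genes of DNA replication and of nucleotide supply, taken by name from the steps between G1 and S phase, and all 40 were present among the 12887 genes in the table of all cells. The cells were single RM1 (RM1536) cells, a mouse prostate cancer line tagged with cerulean (eCFP, a fluorescent protein) and with luc2 (a firefly luciferase). All were dyed with PKH26, a membrane dye that each division dilutes, injected into the heart of C57BL/6 mice and sorted from bone 13 to 26 days later. Cells that had kept the dye (PKH26+) were labelled dormant, 28 cells from 6 mice, and cells that had lost it (PKH26-) proliferating, 29 cells from 6 mice. There were 8 mice in all, and mice 360, 369, 452 and 1185 gave cells of both states. Every mouse received the same dyed line, no group of uninjected animals is used here, and the age of the mice is not given in the sources used here.

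The dormant cells were divided by their eCFP value, a gene that belongs to none of the roles described here. Label-positive dormant cells had an eCFP of at least 100 normalised reads, 22 cells from mice 369, 452, 1184 and 1185. Low-label dormant cells had less, 6 cells from mice 244, 360, 369 and 1184, and eCFP reached only 0 to 87.6 in them against 349 to 5256 in label-positive dormant and 327 to 3230 in proliferating cells. Their other transcripts went against the label of an RM1 cell too. Krt8, an epithelial keratin, was at 0 to 9.40 in the low-label cells and at 560 to 15246 in the label-positive dormant cells. Of 18 pan-leukocyte genes, 10 to 18 were above 0 in each low-label cell, and their summed value was 42179 to 79147, against 846 to 21546 in label-positive dormant and 717 to 10059 in proliferating cells. At least 5 of these genes were above 0 in 6 of 6 low-label, 12 of 22 label-positive dormant and 11 of 29 proliferating cells, and these are the leukocyte-rich cells named below. That name rests on the number of genes above 0 and not on their sum. Proliferating cell 42 was leukocyte-rich at a sum of 1021, and proliferating cell 6 was not at 10059. Arhgdib, one of the 18 genes, was above 0 in 22 of 22 label-positive dormant and 29 of 29 proliferating cells. Given their transcripts, the low-label cells are named by their label level and not as tumour cells. Recovered reads ranged from 945351 to 5306777 per cell, and the median number of genes above 0 was 7854 in label-positive dormant, 5226.5 in low-label and 7649 in proliferating cells.

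A cell that is to divide copies its DNA once. In G1, Cdc6 and Cdt1 load the ring of the MCM helicase onto origins, and geminin (Gmnn) binds Cdt1 to stop a repeat. In S phase Cdc45, the GINS complex and Mcm10 turn the ring into an active helicase, RPA coats the single strands, primase and the polymerases build DNA on the sliding clamp PCNA, and the RFC complexes load that clamp. Ribonucleotide reductase, thymidylate synthase, thymidine kinase and dUTPase supply and guard the deoxynucleotides. Many of these genes are transcribed under E2F factors, which the retinoblastoma protein holds back in resting cells.

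The promoters of 4 members are printed to show the letters upstream of members that were called lower in the low-label cells below, with an E2F word (Mcm7 and Rfc3) and without one (Mcm2), and of Pcna, which was not called. Each is the stretch of 250 bases before the RefSeq start on GRCm38.p6, 5′ to 3′ on the strand of the gene, with E2F words and CCAAT boxes in capitals.
Mcm7, chr5:138171884-138172133, minus strand: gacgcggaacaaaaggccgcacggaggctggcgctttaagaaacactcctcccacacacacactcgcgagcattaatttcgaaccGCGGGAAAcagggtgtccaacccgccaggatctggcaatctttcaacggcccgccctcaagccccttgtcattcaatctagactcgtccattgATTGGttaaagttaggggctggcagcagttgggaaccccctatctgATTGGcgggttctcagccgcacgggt
Mcm2, chr6:88898781-88899030, minus strand: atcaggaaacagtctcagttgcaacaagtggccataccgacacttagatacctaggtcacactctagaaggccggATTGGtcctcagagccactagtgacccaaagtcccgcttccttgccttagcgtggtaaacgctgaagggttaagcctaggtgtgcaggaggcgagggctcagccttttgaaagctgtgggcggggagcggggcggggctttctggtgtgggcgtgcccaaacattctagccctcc
Rfc3, chr5:151651209-151651458, minus strand: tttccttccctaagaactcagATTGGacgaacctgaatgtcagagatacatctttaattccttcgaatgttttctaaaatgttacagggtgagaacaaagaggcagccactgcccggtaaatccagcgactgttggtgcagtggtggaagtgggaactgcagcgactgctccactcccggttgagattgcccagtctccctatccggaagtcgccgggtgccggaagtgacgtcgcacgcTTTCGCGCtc
Pcna, chr2:132253181-132253430, minus strand: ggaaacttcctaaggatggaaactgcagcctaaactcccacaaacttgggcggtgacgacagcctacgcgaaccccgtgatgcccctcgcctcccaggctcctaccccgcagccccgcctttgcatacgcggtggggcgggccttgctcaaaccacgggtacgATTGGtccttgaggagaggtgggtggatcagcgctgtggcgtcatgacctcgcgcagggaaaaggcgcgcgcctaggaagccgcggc
The E2F words searched were TTTCCCGC, TTTGGCGC, TTTCGCGC and TTTGCCGC, on both strands, and the CCAAT box was CCAAT, also on both strands, so that it can read ATTGG. E2F words on opposite strands overlap by 4 bases in the windows of Mcm5 and Mcm6, and each such pair is part of 1 window in the counts. In Mcm7 the printed word starts at −165, and in Rfc3 at −10. Mcm2 and Pcna had a CCAAT box and none of the E2F words in their windows. RefSeq windows, which also hold 50 bases after the start, were matched for 32 of the 40 members, and 12 of these (37.5%) held an E2F word, against 704 of 27025 genes (2.6%). Of the 12 members with a window that were called lower in low-label than in proliferating cells 3 held one, and of the 20 not called 9 did. The CCAAT box was in 21 of the 32 (65.6%), against 41.1% of all genes, and the word TTTGAA, searched on both strands as the cell cycle homology region, in 4 of the 32 (12.5%), against 20.2%. These are matches of letters, and the data hold no measurement of binding.

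Across single cells the replication genes were detected over nearly the whole range from a few to all 40, in dormant and in proliferating cells. Label-positive dormant cells had 6 to 40 of the 40 genes above 0 (median 30.5), and proliferating cells 4 to 40 (median 36). Low-label cells had 9 to 27 (median 14.5). At least 35 of the genes were above 0 in 10 of 22 label-positive dormant, 17 of 29 proliferating and 0 of 6 low-label cells. The count followed the number of genes detected in a cell, with a Spearman rho of 0.678 over 22 label-positive dormant, 0.81 over 29 proliferating and 0.928 over 6 low-label cells. Cells of a group share mice, and which of them share a library batch is not given, so these rho values describe the cells and carry no test.

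**Figure D1:**
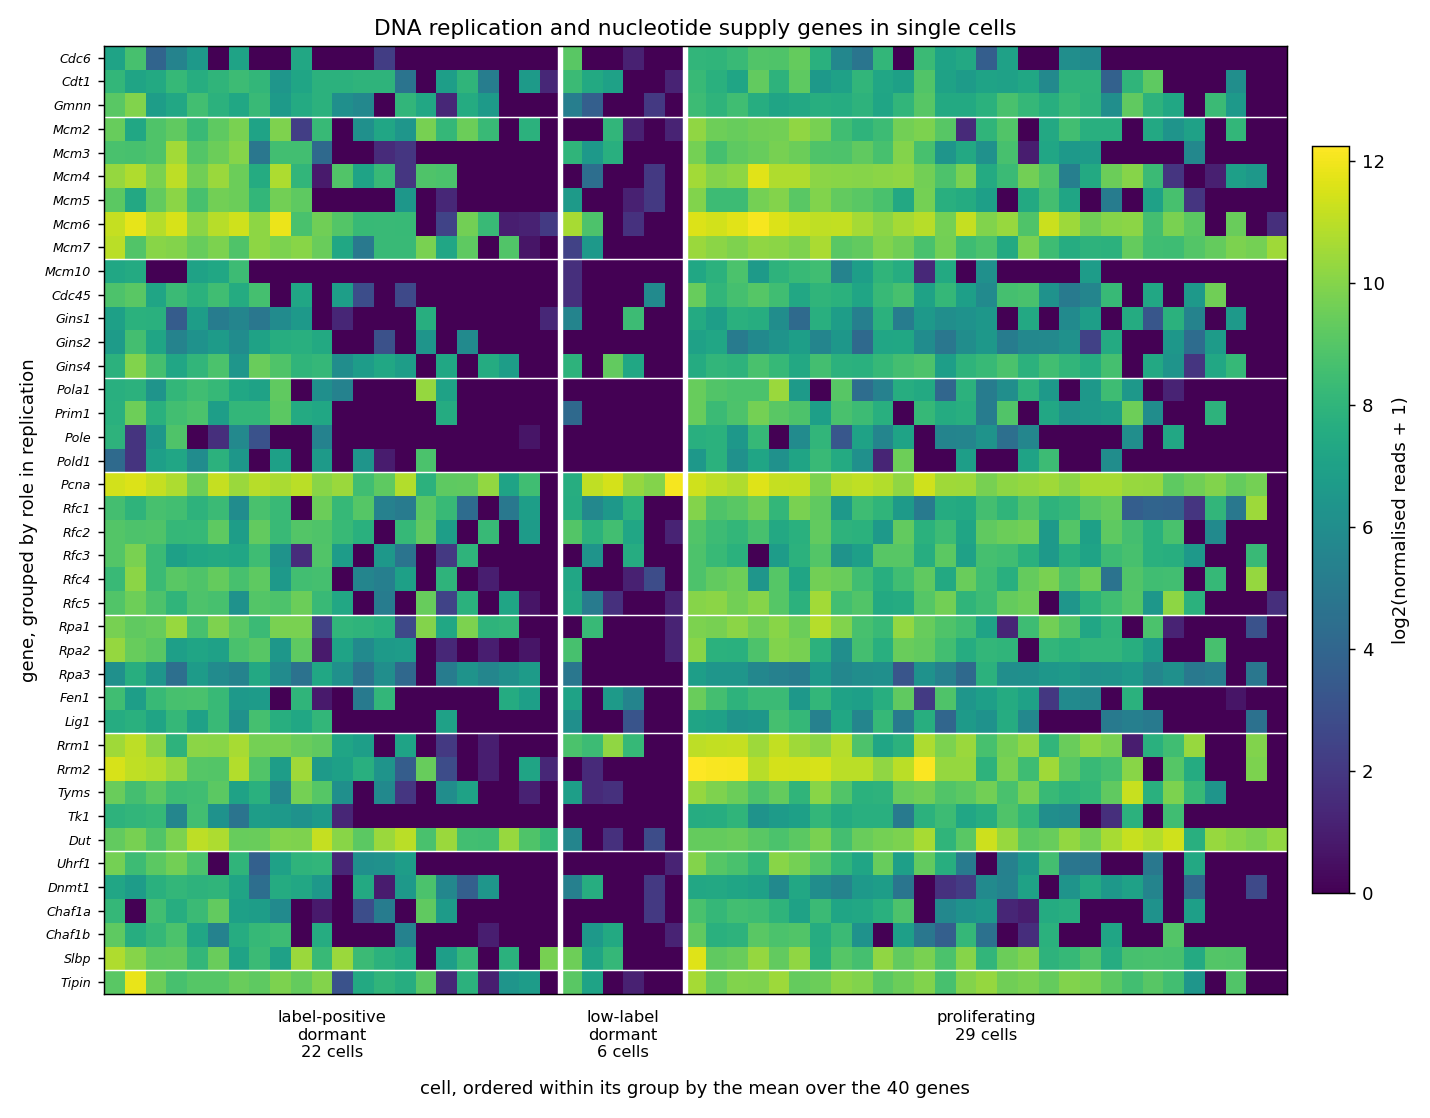
Each column is a cell and each row a gene, coloured by log2(normalised reads + 1), with genes in order of their role and white lines between roles and groups. The left part of the label-positive dormant and of the proliferating block is filled for nearly all genes, while in the 6 low-label cells Pcna is above 0 throughout and 5 genes are at 0 in every cell.

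**Figure D2:**
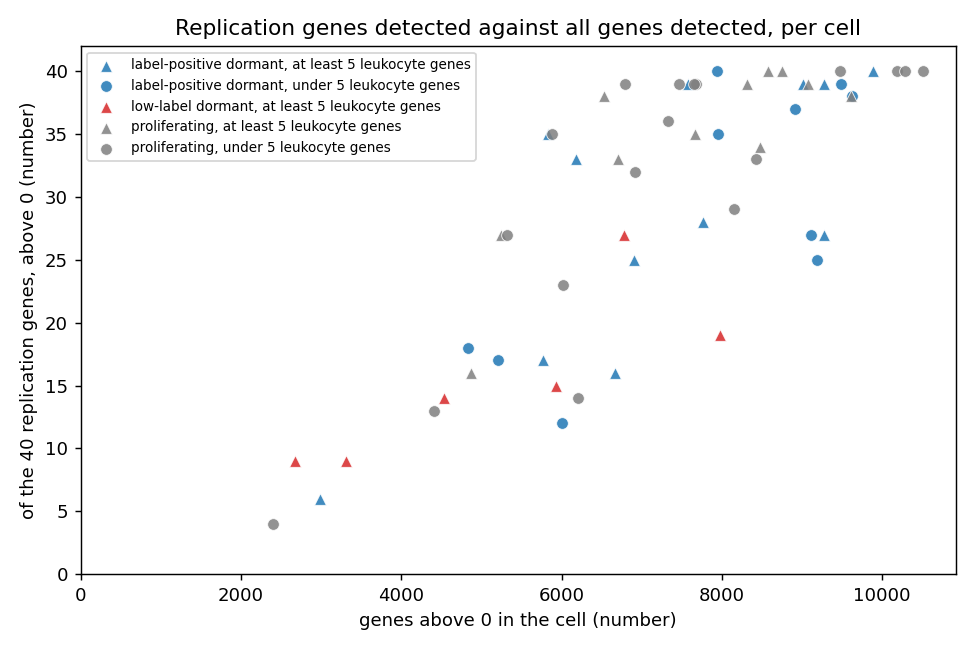
Each point is a cell, with the number of all genes above 0 on the horizontal axis and the number of the 40 replication genes above 0 on the vertical axis. Triangles are leukocyte-rich cells, and the 6 low-label cells lie at 27 genes or fewer.

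The first question was whether cancer cells that kept the dye hold fewer replication transcripts than those that had lost it. For label-positive dormant cells no such difference passed the test. Of the 40 genes, 0 were called by limma at an adjusted p of 0.05 against proliferating cells (4 and 6 mouse means), and 0 were called by edgeR and by DESeq2 on recovered reads. Lower calls made up 0% of all 11843 genes tested by limma, DESeq2 called 55 genes and edgeR 0, and the smallest adjusted p of limma for these genes rounds to 1. At an unadjusted p under 0.05 the count was also 0 of 40, where 0.253% of all genes were lower. The median difference over the 40 genes, label-positive dormant minus proliferating in mean log2(value + 1), was −0.93, against 0.10 over all genes, and 30 of 40 were negative. Standard errors of single genes were 1.16 to 2.01 on this scale, so that differences of this size could not be told from the spread between mice.

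Within mice, the label-positive dormant mean lay above the proliferating mean in mouse 369 and below it in mice 452 and 1185. The mean over the 40 genes, per cell and then per mouse, was 7.85 and 7.58 in mouse 369, 3.57 and 4.52 in mouse 452, and 5.04 and 5.73 in mouse 1185. Mouse 1184, with label-positive dormant cells alone for this comparison, had 5.37, and the proliferating cells of mice 268, 288 and 360 had 3.53, 6.77 and 8.61. The groups overlap over their whole range, and both states were high in mouse 369 and low in mouse 452. Single cells of one mouse also differed: the 11 dormant cells of mouse 1185 had from 12 to 39 of the genes above 0, and the 4 dormant label-positive cells of mouse 369 from 33 to 40. The median difference was −0.37 without mouse 452, −0.41 without mouse 360 and −0.59 without mouse 1185, and −0.55 with the mouse block. It was further from 0 without mouse 268 (−1.35) or 369 (−1.33), with weights by number of cells (−1.07) and with an eCFP threshold of 20 (−1.04). With the weights 4 of 40 were lower at an unadjusted limma p under 0.05, where 576 of 11843 genes passed in either direction. The median was nearer to 0 by edgeR (−0.11) and DESeq2 (−0.17), with log2 of the mean value (−0.11), with a pseudocount of 10 (−0.54) and with an eCFP threshold of 500 (−0.07). Without leukocyte-rich cells in either state the median difference was 1.28, with 0.91 over all genes, and 7 of 40 were negative. With such cells left out of the dormant group alone it was 0.35, with 0.46 over all genes. Both filters removed every label-positive dormant cell of mouse 452, which had the lowest dormant mean, and all but cell 37 of mouse 369. The first also left cell 6 alone in proliferating mouse 268, with 4 of the 40 genes above 0. In cells with at least 37 detected spike-ins the median difference was 0.53 (all genes 0.61), and in cells with fewer −1.62 (all genes −0.22). With at least 37, the dormant side was mouse 369 alone, against proliferating cells of mice 288 and 369. None of the settings with more than 1 mouse mean per group called a member. The part of leukocyte transcripts or library preparation in the difference was not tested.

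**Figure D3:**
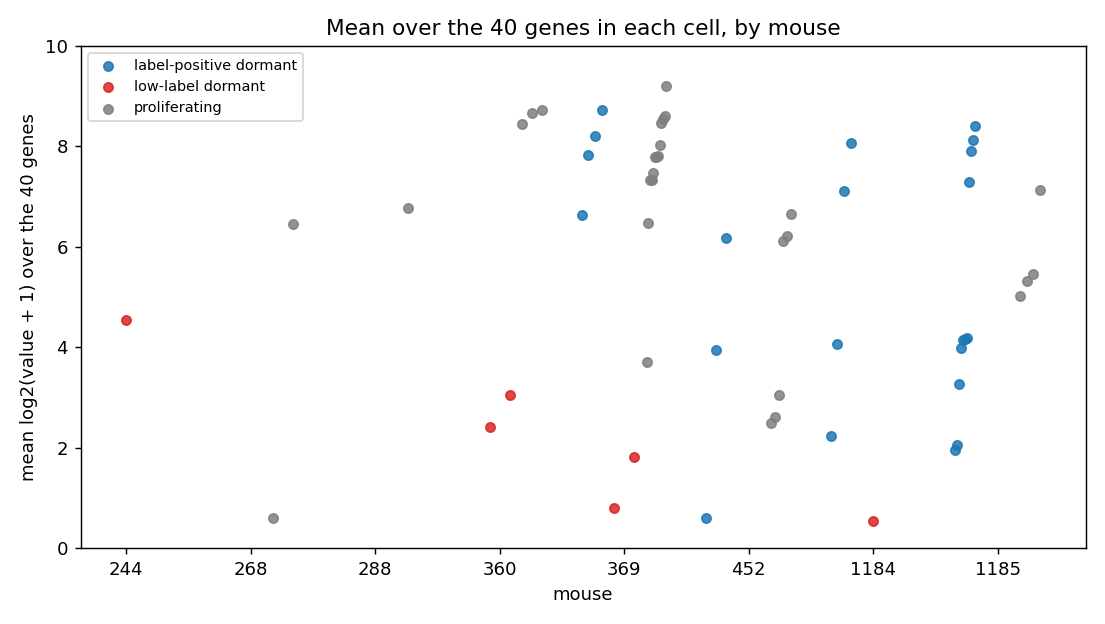
Each point is a cell, placed at its mouse on the horizontal axis and at its mean log2(value + 1) over the 40 genes on the vertical axis, with colour giving the group. In mouse 1185 the dormant cells run from 1.95 to 8.41 and the proliferating cells from 5.01 to 7.14, while low-label cells of mouse 369 (0.79 and 1.82) lie below every other cell of that mouse.

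The low-label cells differed from both other groups. Against proliferating cells (4 and 6 mouse means), 15 of the 40 genes were lower and 0 higher by limma at an adjusted p of 0.05, where 11.7% of all genes were lower. The median difference was −4.00, against −1.39 over all genes, and 39 of 40 were negative, Pcna being the exception. Every low-label mouse mean lay below every proliferating mean for 7 of 40 genes, against 7.96% of all genes. The called genes were Gmnn, Mcm2, Mcm4, Mcm7, Cdc45, Gins2, Pola1, Prim1, Rfc3, Rfc4, Rpa3, Rrm2, Tyms, Tk1 and Dut. With the mouse as a replicate block, 36 of 40 were lower, where 3975 of 11843 genes (33.6%) were, and Cdt1, Pcna, Rfc1 and Rfc2 were not called. The median difference was then −5.74, against −2.39 over all genes. Calls of single genes with the block, given below, stand beside this share of all genes. The block uses only mice with cells of more than 1 group, so mice 244, 268 and 288 are left out of every value with the block. Mouse 244 had the highest low-label mean over the 40 genes, 4.55. Only mice 360 and 369 held both low-label and proliferating cells. Without mouse 369 the count was 5 (2.68% of all genes lower), without mouse 1184 it was 7 (5.63%), without mouse 1185 also 7 (5.81%), and without mouse 360 it was 8 (10.6%).

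Against label-positive dormant cells (4 and 4 mouse means), 7 of the 40 genes were lower and 0 higher in the low-label cells, where 6.16% of all genes were lower. They were Mcm2, Mcm4, Mcm7, Gins2, Pola1, Rrm2 and Dut, and the median difference was −3.21, against −1.47 over all genes. Over the alternative settings the Dut call was lost in 0, Mcm7 in 2, Rrm2 in 4, Mcm2 in 7, Mcm4 in 9, and Gins2 and Pola1 in 10 each. The groups did not overlap for 11 of 40 genes, against 16.2% of all genes. With the mouse block, which leaves out mouse 244, 34 of 40 were lower, where 4357 of 11843 genes were. The median with the block was −5.62, against −2.47 over all genes. Only mice 369 and 1184 held both low-label and label-positive dormant cells. Without mouse 1185 the count was 1 (0.796% of all genes lower), without mouse 369 also 1 (0.864%), and without mouse 1184 it was 2 (1.69%), and without mouse 369 the median was −1.99. Comparisons of the low-label cells share these 6 cells, and both use the proliferating cells in 1 estimate of the spread. Macrophage genes (Lyz2, C1qa, C1qb, C1qc, Csf1r and Adgre1) summed to 63964 to 192984 in the low-label cells, to 0 to 108198 (median 12.4) in label-positive dormant and to 0 to 1251 (median 7.84) in proliferating cells. Most of the low-label sum was Lyz2, at 52145 to 188632. C1qb, C1qc and Csf1r were each above 0 in 5 of 6 low-label cells, Adgre1 in 4 and C1qa in 3. Neutrophil genes summed to 781890 in low-label cell 25 and 443572 in cell 33, with a median of 17.6 over the 6 cells. Low-label cells also had fewer genes above 0, and with cells of at least 5000 genes the counts were 14 of 40 against proliferating (8.37% of all genes lower) and 4 of 40 against label-positive dormant cells (4.36% of all genes lower). All 6 low-label cells were leukocyte-rich, so cell identity and label level cannot be told apart here.

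Of the 40 genes, 5 were at 0 in all 6 low-label cells, namely Gins2, Pola1, Pole, Pold1 and Tk1. A count of 0 of 6 cells allows a share of cells with a read of up to 50%, counting error only, and since the cells came from 4 mice and a gene without a read can still be expressed, this is no limit on expression. The fitted differences of these genes depend on the pseudocount. With them set to a floor of 3 reads in each low-label cell, the median difference over the 40 genes was −3.31 against proliferating and −2.73 against label-positive dormant cells. At this floor Gins2 was −1.83, Pola1 −1.59, Pole −0.99, Tk1 −2.96 and Pold1 0.24 against proliferating cells, and −1.49, −1.91, 0.62, −1.14 and −0.52 in the same order against label-positive dormant cells. Cells without a read enter each mouse mean as 0, and the median share of cells with a member above 0 was 75% in label-positive dormant, 41.7% in low-label and 82.8% in proliferating cells. Among cells above 0 alone, the median difference was −0.38 for label-positive dormant minus proliferating cells and −2.94 for low-label minus label-positive dormant cells, the latter over the 35 genes with a value in both.

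**Figure D4:**
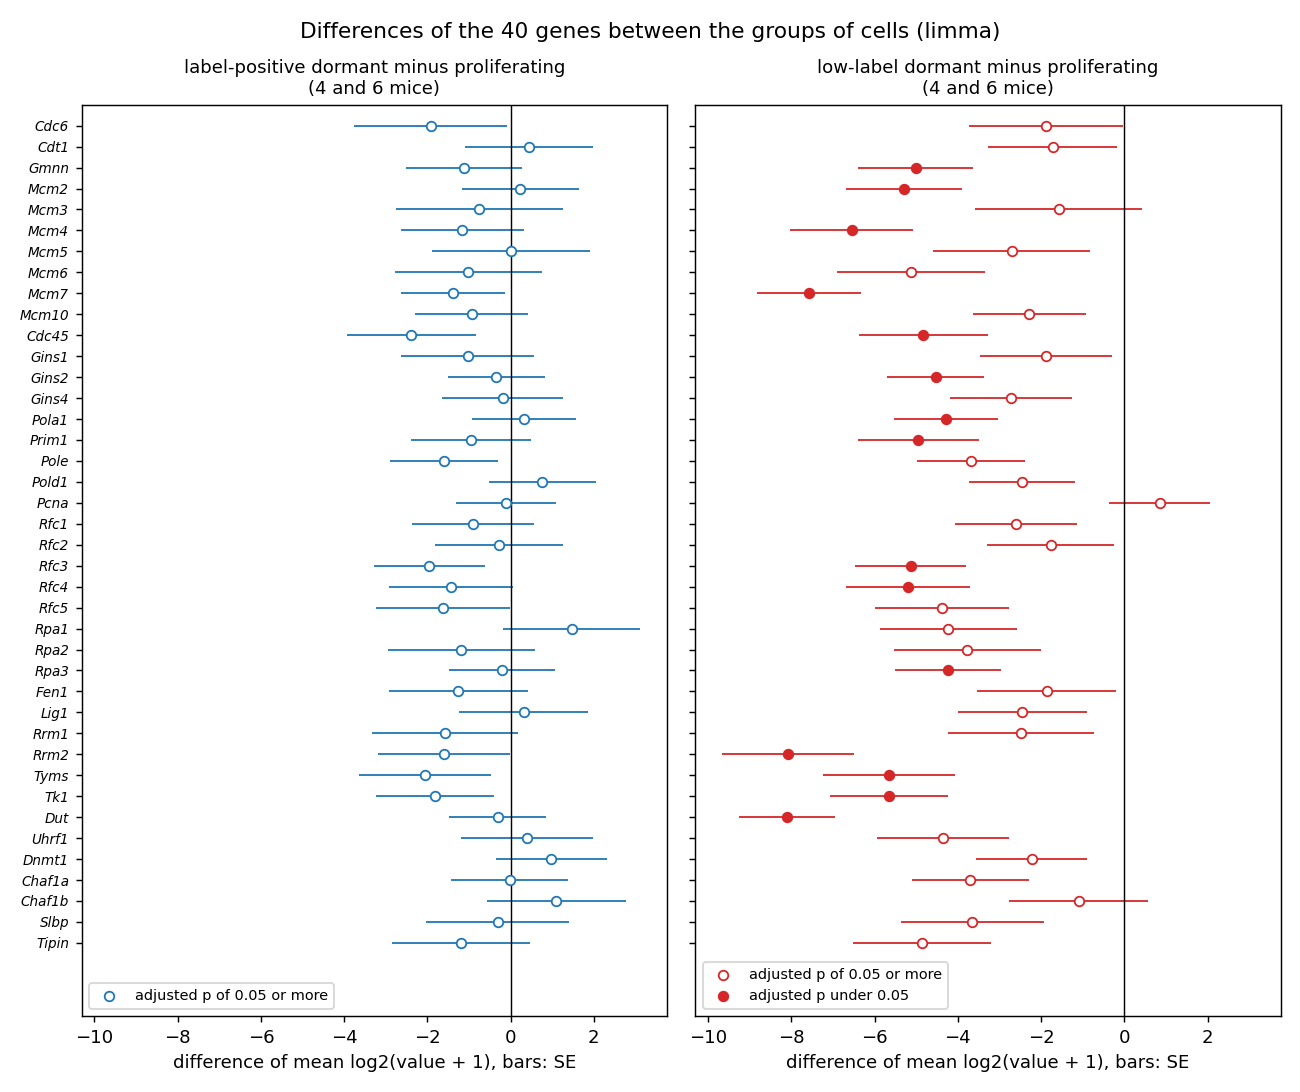
Points are the differences in mean log2(value + 1) for each of the 40 genes, with bars for the standard error, at left label-positive dormant minus proliferating and at right low-label dormant minus proliferating. Filled points passed an adjusted p of 0.05, 0 at left and 15 at right, and Pcna is the one gene above 0 at right.

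Among the licensing genes, Gmnn was lower in the low-label than in the proliferating cells, and Cdc6 and Cdt1 were not called without the mouse block. Cdc6, which loads the helicase, had means of 6.38, 0.00, 1.65 and 1.49 in the label-positive dormant cells of mice 369, 452, 1184 and 1185. Its proliferating means had a lowest, median and highest value of 0.91, 4.46 and 8.01, and its low-label means in mice 244, 360, 369 and 1184 were 9.13, 0.00, 0.55 and 0.00. One low-label mean is thus above all proliferating ones and the other 3 are below them all. Cdt1, the partner of Cdc6, was at 7.78, 5.37, 5.99 and 6.36 in label-positive dormant mice (in the same order), at 8.34, 7.23, 0.00 and 1.22 in low-label mice and at 3.98 (lowest), 6.55 (median) and 7.17 (highest) in proliferating ones. Label-positive dormant minus proliferating was −1.92 (SE 1.84) for Cdc6 and 0.45 (SE 1.54) for Cdt1. With the mouse block, in which mouse 244 has no other group to be set against, Cdc6 was called lower in low-label cells, by −5.57 (limma adjusted p = 0.0071) against proliferating and −4.69 (limma adjusted p = 0.0139) against label-positive dormant cells, and Cdt1 by −5.04 (limma adjusted p = 0.0239) against label-positive dormant cells. Geminin (Gmnn) had means of 7.66, 3.08, 7.48 and 5.47 in label-positive dormant, 5.23, 1.85, 1.02 and 0.00 in low-label and 4.12, 7.59 and 8.71 (lowest, median and highest) in proliferating mice. Its difference was −5.02 (SE 1.39, limma adjusted p = 0.0205) for low-label minus proliferating cells, and this call was lost without mouse 360, 369, 1184 or 1185, with median of ratios scaling and with edgeR (adjusted p up to 0.121 over the alternatives).

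The MCM helicase is a ring of the 6 proteins Mcm2 to Mcm7. Of its genes 3 of 6 were lower in low-label than in proliferating cells, where 11.7% of all genes were lower. The count was also 3 against label-positive dormant cells, where 6.16% of all genes were lower. In that second comparison the Mcm4 call was lost in 9 alternative settings and the Mcm2 call in 7. Mcm7 was above 0 in 20 of 22 label-positive dormant, 2 of 6 low-label and 29 of 29 proliferating cells. Its means were 9.99, 5.57, 6.87 and 8.00 in label-positive dormant mice 369, 452, 1184 and 1185, and 2.40, 3.30, 0.00 and 0.00 in low-label mice 244, 360, 369 and 1184. Proliferating means were 7.44 (lowest), 9.05 (median) and 10.24 (highest), so the low-label means lie below both other groups. The difference was −7.57 (SE 1.25, limma adjusted p = 0.000371) against proliferating and −6.18 (SE 1.36, limma adjusted p = 0.00946) against label-positive dormant cells. The first call held without each mouse in turn, and the second was lost without mouse 369 or 1185. Label-positive dormant minus proliferating gave −1.39 (SE 1.25), not called.

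Mcm5, the ring member with the largest p in that last comparison, spread over nearly the whole scale in each group. It was at 9.28, 0.45, 6.19 and 3.20 in label-positive dormant mice, at 6.67, 0.00, 1.58 and 0.00 in low-label mice and at 0.00, 4.63 and 8.91 (lowest, median, highest) in proliferating mice. Label-positive dormant minus proliferating was 0.01 (SE 1.89). Of the other ring genes, Mcm4 (−6.55, SE 1.48) and Mcm2 (−5.29, SE 1.40) were called for low-label minus proliferating cells, and Mcm6 (−5.12, SE 1.77) and Mcm3 (−1.57, SE 2.01) were not. Mcm2 lost that call without mouse 369 and by edgeR (adjusted p up to 0.125 over the alternatives). With the mouse block Mcm3, Mcm5 and Mcm6 were called too (−4.94, −8.08 and −9.32), and Mcm6 was also called with log2 of the mean value and without mouse 244. Mcm6 was 10.62 in the 1 low-label cell of mouse 244, inside the proliferating range.

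Of the genes that turn the ring into a working helicase, Cdc45 and Gins2 were lower in low-label than in proliferating cells and Mcm10, Gins1 and Gins4 were not called, except with the mouse block (−5.69, −5.11 and −4.87) and, for Mcm10, by DESeq2. Cdc45, a part of the active helicase, was at 7.70, 0.00, 2.63 and 4.04 in label-positive dormant mice, at 1.65, 0.00, 2.92 and 0.00 in low-label mice and at 2.53, 6.56 and 8.65 (lowest, median, highest) in proliferating mice. It had the largest negative difference of the 40 genes for label-positive dormant minus proliferating cells, −2.38 (SE 1.55, unadjusted p 0.138 by limma), and the groups overlap. Its difference for low-label minus proliferating cells was −4.83 (SE 1.55, limma adjusted p = 0.0401), a call lost without any mouse but 268. The Cdc45 call was also lost with a pseudocount of 0.1, median of ratios scaling, weights by number of cells, edgeR and an eCFP threshold of 20. Gins4, a GINS subunit, was at 7.74, 5.14, 7.82 and 5.66 in label-positive dormant and at 7.93, 4.65, 3.64 and 0.00 in low-label mice, with a proliferating median of 7.08. Gins2, another subunit, was above 0 in 14 of 22 label-positive dormant, 0 of 6 low-label and 24 of 29 proliferating cells.

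For the polymerases, low-label cells had no read of Pola1, Pole or Pold1, the catalytic subunits of polymerases alpha, epsilon and delta. Pola1 was above 0 in 13 of 22 label-positive dormant and 21 of 29 proliferating cells. Its means were 5.34, 4.39, 4.43 and 4.26 in label-positive dormant mice and 0.00 (lowest), 4.86 (median) and 6.74 (highest) in proliferating mice. Label-positive dormant means thus fall within the proliferating range. Pole was at 5.03, 1.81, 0.00 and 1.47 in label-positive dormant mice and at 0.00, 4.39 and 7.47 (lowest, median, highest) in proliferating mice, a difference of −1.61 (SE 1.30, not called). Pola1 and Prim1, the small primase subunit, were called lower in low-label than in proliferating cells (limma adjusted p = 0.0262 for both), each lost without mouse 360, 369, 1184 or 1185 and Prim1 also with median of ratios scaling. Pole and Pold1 were not called (limma adjusted p 0.0581 and 0.18), but both were with the mouse block (0.0169 and 0.0098) and by DESeq2, and Pole also by edgeR.

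Pcna, the sliding clamp, stood apart from the other members in the low-label cells. It was above 0 in 21 of 22 label-positive dormant, 6 of 6 low-label and 28 of 29 proliferating cells, with medians of 1269, 1715 and 1391 normalised reads. Means were 10.98, 6.42, 10.32 and 9.56 in label-positive dormant mice, 7.63, 11.26, 10.14 and 12.05 in low-label mice and 5.06 (lowest), 10.12 (median) and 10.82 (highest) in proliferating mice. The highest low-label means exceed the highest proliferating mean. The difference for low-label minus proliferating cells was 0.84 (SE 1.21, limma adjusted p = 0.627), and −0.19 with the mouse block. Pcna also has the near-identical pseudogene Pcna-ps2 in the same table, at medians of 12.7, 24.1 and 18.1 normalised reads in the 3 groups in the same order, so reads could be divided between these loci and the Pcna values are uncertain to that extent. Per kilobase of exon, Pcna had the highest mean level of the 40 genes in every group, 530 normalised reads per kilobase in label-positive dormant, 809 in low-label and 617 in proliferating cells.

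The clamp loader subunits did not follow Pcna. Rfc3 was at 6.52, 3.66, 4.57 and 4.89 in label-positive dormant mice, at 0.00, 3.16, 3.78 and 0.00 in low-label mice and at 3.86, 7.62 and 8.51 (lowest, median, highest) in proliferating mice. Low-label means lie below all proliferating means and label-positive dormant means overlap with them. Rfc3 was called for low-label minus proliferating cells (−5.13, SE 1.34, limma adjusted p = 0.0148), but not without mouse 1184 or 1185, in cells with at least 5000 genes, nor by edgeR or DESeq2. Rfc4 was also called (−5.20, SE 1.49), but not without mouse 360, 369, 1184 or 1185, with median of ratios scaling, nor by edgeR or DESeq2, and Rfc1, Rfc2 and Rfc5 were not (−2.61, −1.77 and −4.38), though Rfc5 was with the mouse block (−6.80).

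Of the RPA complex, which coats single-stranded DNA, Rpa3 alone was called by limma over all mice without the mouse block, lower in low-label than in proliferating cells (−4.23, SE 1.27, limma adjusted p = 0.0293), and not without mouse 360, 369, 1184 or 1185, with median of ratios scaling, nor by edgeR or DESeq2. Rpa3 was at 5.65, 4.13, 5.59 and 5.57 in label-positive dormant, at 4.85, 0.00, 0.00 and 0.00 in low-label and at 3.33, 5.77 and 6.55 (lowest, median, highest) in proliferating mice. Rpa1, its largest partner, was at 9.49, 3.22, 7.28 and 8.13 in label-positive dormant, at 0.00, 4.12, 0.00 and 1.22 in low-label and at 1.33, 4.46 and 10.23 in proliferating mice. Rpa1 had the highest difference of the 40 genes for label-positive dormant minus proliferating cells, 1.46 (SE 1.65), not called. With the block Rpa1 (−6.79) and Rpa2 (−7.73) were also lower in low-label than in proliferating cells, and both were called with log2 of the mean value. The genes that finish lagging strands, Fen1 (flap endonuclease) and Lig1 (DNA ligase), were called in no comparison without the block, and with it were lower in low-label than in proliferating cells (−3.89, limma adjusted p = 0.0326, and −4.70, limma adjusted p = 0.0145). Fen1 was at 7.84, 0.30, 2.18 and 5.28 in label-positive dormant, at 7.07, 3.33, 2.76 and 0.00 in low-label and at 2.22, 5.03 and 8.21 in proliferating mice. Lig1 was at 7.06, 5.04, 3.67 and 2.98, then at 6.08, 0.00, 1.59 and 0.00, and at 0.00, 4.95 and 7.56 in the same groups. All groups overlap for both.

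In nucleotide supply 4 of 5 genes were lower in low-label than in proliferating cells, where 11.7% of all genes were lower. Dut, the dUTPase that keeps uracil out of DNA, was above 0 in 22 of 22 label-positive dormant and 29 of 29 proliferating cells, and in 3 of 6 low-label cells at 47.3 normalised reads or less. Its means were 9.37, 9.93, 10.10 and 9.63 in label-positive dormant mice, 5.59, 0.86, 1.43 and 0.00 in low-label mice and 9.14 (lowest), 10.11 (median) and 11.18 (highest) in proliferating mice. Label-positive dormant and proliferating means overlap within a narrow band and low-label means lie below it. The difference was −8.10 (SE 1.16, limma adjusted p = 9.73e-05) against proliferating and −7.79 (SE 1.27, limma adjusted p = 0.000715) against label-positive dormant cells, and both calls held without each mouse in turn. Label-positive dormant minus proliferating was −0.31 (SE 1.16).

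Rrm2, the regulated small subunit of ribonucleotide reductase, was at 10.92, 3.62, 5.11 and 6.99 in label-positive dormant mice, at 0.00, 0.72, 0.00 and 0.00 in low-label mice and at 4.55, 8.27 and 11.89 (lowest, median, highest) in proliferating mice. Low-label means lie below all others. It was above 0 in 20 of 22, 1 of 6 and 25 of 29 cells of these groups. Its difference for low-label minus proliferating cells was −8.09 (SE 1.58, limma adjusted p = 0.00201). Label-positive dormant minus proliferating was −1.60 (SE 1.58), not called, and the mean level per kilobase was 236 in label-positive dormant and 560 in proliferating cells. Rrm1, the large subunit, was at 8.76, 9.30, 4.09 and 0.00 in low-label mice and was called for low-label minus proliferating cells with the mouse block alone (−5.12, limma adjusted p = 0.0273).

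Tyms, thymidylate synthase, was at 8.84, 5.00, 4.03 and 4.91 in label-positive dormant, at 6.87, 1.58, 0.00 and 0.00 in low-label and at 3.96, 8.78 and 9.81 (lowest, median, highest) in proliferating mice. It was called for low-label minus proliferating cells (−5.65, SE 1.58, limma adjusted p = 0.0213), though not without mouse 360, 369, 1184 or 1185 or with edgeR. Tk1, thymidine kinase, was above 0 in 12 of 22 label-positive dormant, 0 of 6 low-label and 22 of 29 proliferating cells. Its means were 6.77, 2.23, 3.78 and 2.55 in label-positive dormant mice and 1.63 (lowest), 6.28 (median) and 8.89 (highest) in proliferating mice, which overlap (−1.83, SE 1.42, not called). The limma call of Tk1 in low-label cells (adjusted p = 0.0119) was lost without mouse 369.

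**Figure D5:**
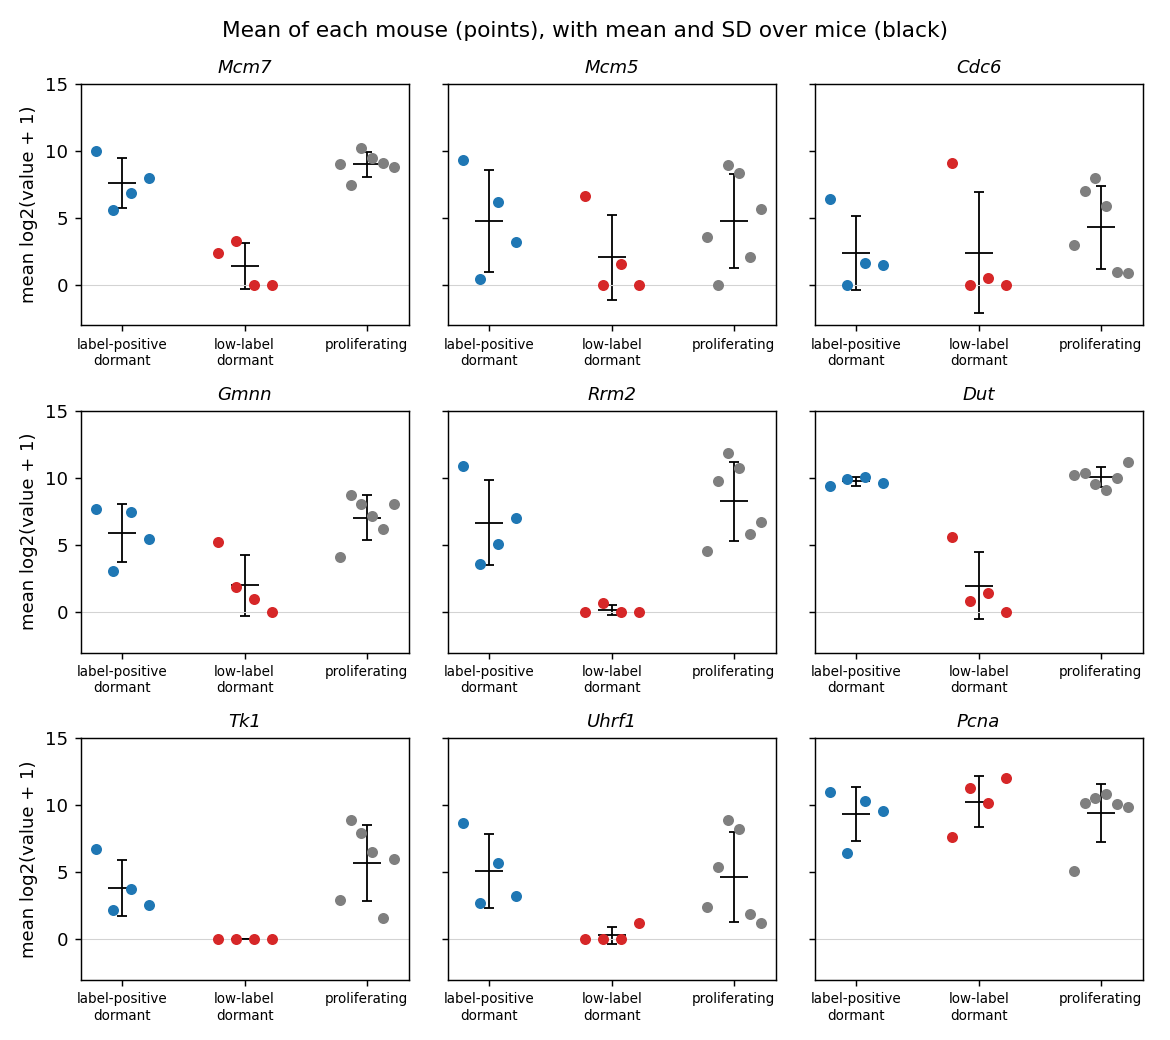
Points are the mean log2(value + 1) of each mouse for 9 genes in the 3 groups, with black bars for the mean and SD over mice. Low-label points of Mcm7, Rrm2, Dut and Tk1 lie below all proliferating points, those of Pcna reach 12.05, and label-positive dormant and proliferating points overlap in all 9 panels.

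None of the 5 genes that copy chromatin with the DNA was called by limma over all mice on log2(value + 1) without the mouse block, though Uhrf1 and Chaf1a were lower in the low-label cells by edgeR and DESeq2. Uhrf1, which reads half-methylated DNA behind the fork, was at 8.71, 2.69, 5.66 and 3.22 in label-positive dormant, at 0.00, 0.00, 0.00 and 1.22 in low-label and at 1.22, 3.89 and 8.89 (lowest, median, highest) in proliferating mice. Its difference was −4.36 (SE 1.58, limma adjusted p = 0.0643) for low-label minus proliferating cells. Dnmt1, the maintenance DNA methyltransferase that Uhrf1 recruits, was at 7.37, 4.07, 7.13 and 4.38, then at 5.31, 3.82, 1.02 and 0.00, and at 3.17, 4.58 and 6.86 in the same groups. Label-positive dormant minus proliferating was 0.97 (SE 1.33) for Dnmt1 and −0.02 (SE 1.40) for Chaf1a, the large subunit of the histone chaperone CAF-1. Chaf1a means were 5.91, 2.54, 3.55 and 3.73 in label-positive dormant, 0.00, 0.00, 1.02 and 0.00 in low-label and 0.17, 3.51 and 8.34 in proliferating mice. Slbp, which binds the stem-loop of histone messages, was at 9.37, 8.29, 5.64 and 7.24 in label-positive dormant, at 9.54, 7.66, 0.00 and 0.00 in low-label and at 4.10, 8.66 and 9.48 in proliferating mice. Tipin, of the fork protection complex, was at 9.34, 3.76, 6.89 and 7.94, then at 9.13, 3.56, 0.55 and 0.00, and at 4.97, 9.30 and 9.60, with a difference of −4.86 (SE 1.66, limma adjusted p = 0.051) for low-label minus proliferating cells. For Slbp and Tipin the low-label values are divided between mice 244 and 360, with higher values, and mice 369 and 1184, at 0.55 or less, and the groups overlap for Slbp, Tipin and Dnmt1. With the mouse block all 5 chromatin genes and Tipin were called lower in low-label than in proliferating cells, from −3.72 for Chaf1b to −7.91 for Tipin. The block called 33.6% of all genes lower in this comparison.

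Other genes of the same pathways, from lists that do not include the 40, were counted in the same fits. For label-positive dormant minus proliferating cells, 0 of 36 other replication genes, 0 of 25 other nucleotide metabolism genes and 0 of 22 E2F and Rb genes were called by limma, with 0, 0 and 1 at an unadjusted p under 0.05 and medians of −0.43, −0.03 and −0.52. That one was Skp2, a ubiquitin ligase subunit, at −2.78 (SE 1.33, unadjusted p 0.0482). For low-label minus proliferating cells 10 of 36, 10 of 25 and 5 of 22 were lower and 0 higher, where 11.7% of all genes were lower, with medians of −3.03, −3.05 and −2.55. Named by the smallest p, these included Pole3 (−7.51, SE 1.26), a polymerase epsilon subunit, Orc4 (−7.04, SE 1.48), of the origin recognition complex, Shmt2 (−6.87, SE 1.33), the mitochondrial serine hydroxymethyltransferase, and E2f5 (−6.95, SE 1.15), an E2F factor. For low-label minus label-positive dormant cells 3 of 36, 5 of 25 and 2 of 22 were lower and 0 higher, where 6.16% of all genes were lower.

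Over all dormant cells as labelled, low-label cells included, against all proliferating cells (6 and 6 mice), 0 of the 40 genes were called by limma, edgeR or DESeq2. Of all genes 0% were called lower by limma, and edgeR called 18 genes and DESeq2 302 in either direction. At an unadjusted p under 0.05, 11 of 40 were lower and 0 higher by limma, where 6.22% of all genes were lower. These were Gmnn, Mcm4, Mcm7, Cdc45, Pole, Rfc3, Rfc4, Rrm2, Tyms, Tk1 and Dut. The median difference was −1.69, against −0.35 over all genes, and 38 of 40 were negative. With the mouse block the count at an unadjusted p under 0.05 was 18 and the median −2.46 (−0.69 over all genes). Without mouse 360, whose 2 dormant cells were both low-label, the count was 4 and the median −0.74. Without leukocyte-rich cells the count was 0 and the median 1.28 (0.91 over all genes). That filter removed every dormant cell of mice 244, 360 and 452. Libraries were prepared in batches of one state each, per the labels' protocols, and the effects of batch and of state cannot be told apart. The batch of each cell is not given. In mouse 369, 8 proliferating cells had at least 37 detected spike-ins and 5 had fewer, while its 4 label-positive and 2 low-label dormant cells had at least 37.

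In label-positive dormant and proliferating cells most pairs of the 40 genes had a positive rank correlation. The median Spearman rho over the 780 pairs of genes was 0.52 in 22 label-positive dormant cells, with 767 pairs above 0, and 0.393 in 29 proliferating cells, with 731 pairs above 0. Dut had the lowest median rho with the other genes in both, 0.177 and −0.282. In the 6 low-label cells, 35 of the 40 genes had a read in any cell. Over the 595 pairs of these genes the median rho was 0.22, with 381 pairs above 0, and 9 genes had a median rho below 0. The median rho of a single gene with the number of genes detected was 0.426, 0.505 and 0.393 in label-positive dormant, proliferating and low-label cells, so that detection in a cell moves with these values. The mean over the 40 genes had a rho of 0.50 with Mki67, a marker of cycling cells, in label-positive dormant cells, 0.479 in proliferating cells and −0.034 in the 6 low-label cells, and in the first 2 groups of 0.049 and 0.066 with the number of leukocyte genes above 0. Mki67 was above 0 in 12 of 22 label-positive dormant, 2 of 6 low-label and 22 of 29 proliferating cells. The order of mean levels per kilobase over the 40 genes had a rho of 0.932 between label-positive dormant and proliferating cells and of 0.491 between low-label and proliferating cells, over genes, which are not independent. The lowest level per kilobase in label-positive dormant cells was that of Pole, 3.70, followed by Mcm10, 5.63, and Cdc6, 8.76.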

How the data were processed

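RNA of sorted single cells was made into SMARTer cDNA with ERCC spike-ins and Nextera XT libraries, per the labels' protocols. STAR, RSEM, GRCm38 and mm10 are named in the submitters' processing notes. The authors deposited a signal per gene and cell, normalised reads from BASiCS, which makes use of spike-ins, per the series text. Dividing by the smallest gene value of its cell made 100% of gene values above 0 whole (tolerance 0.01 reads), which gave recovered reads; 118 spike-in features were left out. Depth was 945351 to 5306777 reads per cell; intervals and floors cover counting error only. Of 12887 gene IDs, 12852 matched a symbol. The highest correlation between cells was 0.878, so none looked like a repeat of another library.

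The mouse was the replicate: the mean of log2(value + 1) over its cells of a group was tested with limma (3.58.1, trend and robust) over all 11843 genes above 0 in at least 6 cells, with Benjamini-Hochberg adjustment over all of them. This scale understates changes of low genes, and means of mice with 1 cell rest on that cell. One fit held all 3 groups, another dormant against proliferating cells as labelled. edgeR (4.0.16) and DESeq2 (1.42.0) on recovered reads summed per mouse were alternatives. Other alternatives changed the pseudocount, filter, averaging, scaling, weights, eCFP threshold, cells and mice; those by spike-ins, by genes detected and with leukocyte-rich cells left out of the dormant group alone were chosen after seeing the data. Pairing comes from the labels, since groups share mice; deviations of paired dormant and proliferating means correlated at 0.337, 0.164, −0.013 and −0.006 in mice 369, 452, 1185 and 360. The fits were also run on simulated data, in which cells were redrawn without regard to mouse or group and only widely detected genes were changed. Those runs do not test the fits at sparse genes or for the spread between mice. The members, lists, roles and the eCFP threshold were chosen with earlier results of these data known. By the rule for named genes any member could be named, mouse values were given for the members with the smallest and largest p of each role and a fixed set, and other genes were named from the lists by smallest p. Promoter letters come from RefSeq (GRCm38.p6). Fits ran in R 4.3.3 and tables in Python 3.11.15 (pandas 2.3.3, scipy 1.17.1); figures were drawn with matplotlib 3.10.9.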

Additional observations from a re-analysis of the deposited data

Results flagged for a closer look

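For each of the 40 genes the mouse means of each group were examined for a single mean far from the rest, with a test that chance passes in about 1 in 20 groups, and 11 of 115 groups were picked out. In the low-label group 5 of these were the single cell of mouse 244: Cdc6 at 9.13, Rpa2 at 8.68, Rpa3 at 4.85, Prim1 at 4.18 and Mcm10 at 1.65 in mean log2(value + 1). The others in this group were Uhrf1 at 1.22 in mouse 1184, Chaf1a at 1.02 in mouse 369 and Rrm2 at 0.72 in mouse 360, each above means at 0. For Mcm10, Prim1 and Rpa3 too the other low-label means were all 0. A lone value above 0 is then picked out whatever its size, so the rate of 1 in 20 does not hold for these 6 genes. Among label-positive dormant means, Pola1 was high in mouse 369 at 5.34 and Rpa3 low in mouse 452 at 4.13. Among proliferating means, Pcna was low in mouse 268 at 5.06.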

How the results depend on the processing

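No member was called for label-positive dormant or for all dormant against proliferating cells in any setting with more than 1 mouse mean per group. The median over the 40 genes kept its sign except in settings that left out cells and, with them, some dormant mice. Without leukocyte-rich cells it was 1.28 in both comparisons. For label-positive dormant cells it was also above 0 with at least 37 spike-ins (0.53, mouse 369 being the only dormant mouse). With leukocyte-rich cells left out of the dormant group alone it was 0.35. The replicate block left out mice 244, 268 and 288, which have cells of 1 group only. All calls of members in low-label cells were lower, and brackets give the share of all genes called lower, which moved with the counts. Members called for low-label minus proliferating cells numbered 15 (11.7%) and 23 with log2 of the mean value (21%). They numbered 36 with the replicate block (33.6%) and 5 to 19 with 1 mouse left out (2.68% to 14.6%). For low-label minus label-positive dormant cells they numbered 7 (6.16%), and 4 with a pseudocount of 10 (5.61%). The count was 20 with log2 of the mean value (17.7%), 3 with median of ratios scaling (2.9%) and 34 with the replicate block (36.8%, median −5.62). With 1 mouse left out it was 1 to 8 (0.796% to 11.9%), and with DESeq2 15 (13.8%). It was 3 and 17 with eCFP thresholds of 20 and 500 (4.21% and 11.2%), and 4 in cells with at least 5000 genes (4.36%). Cdc6 in that comparison was 0.04 and became −4.69 with the block. Over single genes and settings, 55 values lost and 62 gained a call for low-label minus proliferating cells, and 42 and 71 for low-label minus label-positive dormant cells. The block changed no call for the other comparisons. The cause of these changes was not tested, though a mouse left out also leaves fewer means. Leaving out leukocyte-rich cells removed the low-label group, so its comparisons have no value there. Depth and the number of low-label cells limit what a gene at 0 can show.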

Other observations

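The single low-label cell of mouse 244, sorted on day 26 and chosen here after its values were seen, had 27 of the 40 genes above 0 with 1421017 reads and 6780 genes detected. In it Mcm6 was at 10.62, Slbp at 9.54, Cdc6 and Tipin at 9.13, Rfc2 at 8.96, Rrm1 at 8.76 and Rpa2 at 8.68 in log2(value + 1), while Mcm2, Mcm4, Rrm2, Tk1, Pola1 and Uhrf1 were at 0. All 18 pan-leukocyte genes were above 0 in it, its macrophage genes summed to 180349 and its neutrophil genes to 443572 normalised reads, and its eCFP was 2.15. The other 5 low-label cells had 9 to 19 of the 40 genes above 0. Over the 6 low-label cells the mean over the 40 genes had a Spearman rho of 0.971 with the number of pan-leukocyte genes above 0 and 0.928 between members and all genes detected, so these cells are ordered alike by leukocyte genes, by genes detected and by replication genes. With 6 cells from 4 mice this is a description.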
